A study of Homo sapiens with 4 samples.

Results

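The miR-320 family was examined in exosomes, which are small vesicles shed by cells, from Hep3B, a human hepatocellular carcinoma line. Its members were the entries named miR-320a, miR-320b, miR-320c, miR-320d and miR-320e, with any arm or none, and 5 of the 1308 entries of the array carried such a name, each without an arm. Small RNA was measured on 4 arrays of 1 colour (Cy5). On 2 of them the cells had been kept for 2 days in exosome-free medium with 10 µM camptothecin, an inhibitor of topoisomerase I. On the other 2 the cells had spent 2 days in the same medium and are labelled as not treated, although the column headers of the authors' second table name DMSO. The RNA came from a commercial exosome kit applied to conditioned medium, and no label says whether replicate arrays stem from separate cultures, so the p-values may measure technical spread alone.

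Most miRNAs are cut from a long primary transcript by the nuclear nuclease Drosha with its partner DGCR8, exported, and cut again by Dicer. miR-320 is a known exception. In mouse its hairpin has been shown to be transcribed directly as a short RNA with a capped end, to leave the nucleus without Drosha, and to go straight to Dicer, which leaves the 3p arm as the mature miRNA. Human miR-320a is among the miRNAs that persist in cells without Drosha, and the family is often detected in plasma and in vesicles.

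The mature sequences show how alike the members are, and hence how close the targets of their probes lie. RefSeq's miRNA table (GRCh38.p14) held 4 of the 5 members, miR-320b to miR-320e, and also miR-4429, an entry of the array outside the family that shares the seed of miR-320b. Capitals mark the seed, bases 2 to 8 counted from the 5′ end, which pairs with target messengers.
miR-320b: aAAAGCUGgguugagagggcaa
miR-320c: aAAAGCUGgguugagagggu
miR-320d: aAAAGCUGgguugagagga
miR-320e: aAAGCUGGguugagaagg
miR-4429: aAAAGCUGggcugagaggcg

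Counting positions from the 5′ end of miR-320b, miR-320c ended at base 20 with the difference C20U and miR-320d ended at base 19 with G19A. miR-320e, 18 bases long, began at position 2 and carried G17A, so its bases 2 to 8 were shifted by 1 base and formed a seed of their own. miR-4429 kept the seed of miR-320b and differed by U11C, G19C and C20G. The run aaagcuggguugaga, 15 bases long, was common to all 4 members with a sequence and occurred in 0 other mature sequences of the table. Of the table's 2370 mature sequences, which lack miR-320a, 4 held the seed AAAGCUG, all 4 of them entries of this array. Probes for these RNAs may not tell them apart, and this was not tested, so the values below belong to probes named for a member rather than to one RNA with certainty.

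The annotated hairpins of miR-320b, the member that passed the test, are 72 and 71 bases long. The annotation does not give the ends of the transcripts they come from. The capitals mark the mature miRNA. MIR320B1 lies at chr1:116671746-116671817 (GRCh38.p14, plus strand) and overlaps no other gene of RefSeq. MIR320B2 lies at chr1:224257040-224257110 (minus strand) within the span of NVL, which encodes a nuclear ATPase of ribosome assembly.
MIR320B1: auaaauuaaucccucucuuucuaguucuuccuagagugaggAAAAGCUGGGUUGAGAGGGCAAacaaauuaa
MIR320B2: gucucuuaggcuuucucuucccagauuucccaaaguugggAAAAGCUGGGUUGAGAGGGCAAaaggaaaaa

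miR-320c and miR-320d also have more than 1 origin. Both hairpins of miR-320c lie on chromosome 18, in the spans of ABHD3 (chr18:21683518-21683589) and OSBPL1A (chr18:24321675-24321746). miR-320d comes from chr13:40727816-40727887 and chrX:140926160-140926231, neither within another gene of RefSeq, and miR-320e from chr19:46709282-46709354 in the span of PRKD2. The table gives no exons, so exonic and intronic positions were not assigned. Copies with the same mature sequence share a probe and cannot be told apart here.

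Values are the deposited intensities, in arbitrary units on a linear scale. The arrays ran from 109 to 8436 after treatment and from 91.4 to 12998 without it, and the 75th percentile was 250.15 on all 4. Once sorted, the 1308 values of one array matched those of the other array of its group, as they do after quantile normalization within a group. Such a step shrinks the spread of replicates and makes p-values too small. No entry was marked as detected or not, so the height of a dim probe over background is unknown. Markers of hepatocytes and of other cell types were mostly as dim as the family. The 5 hepatocyte markers had a median level of 146, summed to 970 and 950 after treatment against 832 and 798 without it. As deposited 4 were called higher, where 35.1% of all entries were, and 0 with cyclic loess or with all 4 arrays quantile normalized together. The 4 muscle markers summed to 1150 and 1132 against 880 and 914, and 4 were called higher as deposited and 2 under each of those scalings. Of all 1308 entries cyclic loess called only 197, 71 of them lower, and the joint quantile scaling 169, 90 of them higher. With so few calls, 0 of the 5 hepatocyte markers says little, while 2 of the 4 muscle markers was a larger share than that of all entries. Of the 5 red cell markers only miR-16-5p and miR-486-5p were analysed here, summing to 410 and 404 against 375 and 384, and of the 5 white cell and platelet markers only miR-150-5p and miR-223-3p, summing to 340 and 396 against 322 and 308. Their part in the family's values was not tested.

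Of the family, miR-320b fell after camptothecin and the other 4 members did not pass the test. The fall was small, 1.16-fold, and it lay close to the threshold. Across all entries 46.3% were called, 35.1% higher and 11.2% lower (limma with Benjamini-Hochberg adjustment over all 1308 entries, adjusted p under 0.05), so 1 call among 5 members is no more than the array as a whole gave. The median log2 fold change of the members was -0.0028, against 0.11 over all entries, whose 10th and 90th percentiles were -0.20 and 0.31.

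miR-320b was the brightest probe of the family. It read 241.7 and 265.7 on the treated arrays and 296.5 and 291.0 on the untreated arrays, so both treated values lay below both untreated ones. The means were 254 ± 17.0 and 294 ± 3.93 (SD, n = 2), a log2 fold change of -0.21 ± 0.061 SE with a 95% interval from -0.37 to -0.061 (limma adjusted p = 0.0368). Arrays of the groups were apart in this sense for 78.7% of all entries, with the treated arrays lower for 19.3%. The probe lay at the 73.5 and 77.0 percentile of the treated arrays and at the 80.6 and 80.1 percentile of the untreated arrays. The treated arrays differed from each other by 0.14 on the log2 scale, more than the median of 0.065 over all entries. The call was lost with each array left out in turn, as most calls were, with a log2 fold change from -0.281 to -0.145. It was also lost with all 4 arrays quantile normalized together, where the log2 fold change was -0.23 (limma adjusted p = 0.0741). With the 75th percentile taken over brighter entries the log2 fold change was -0.088 (limma adjusted p = 0.228).

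**Figure D1:**
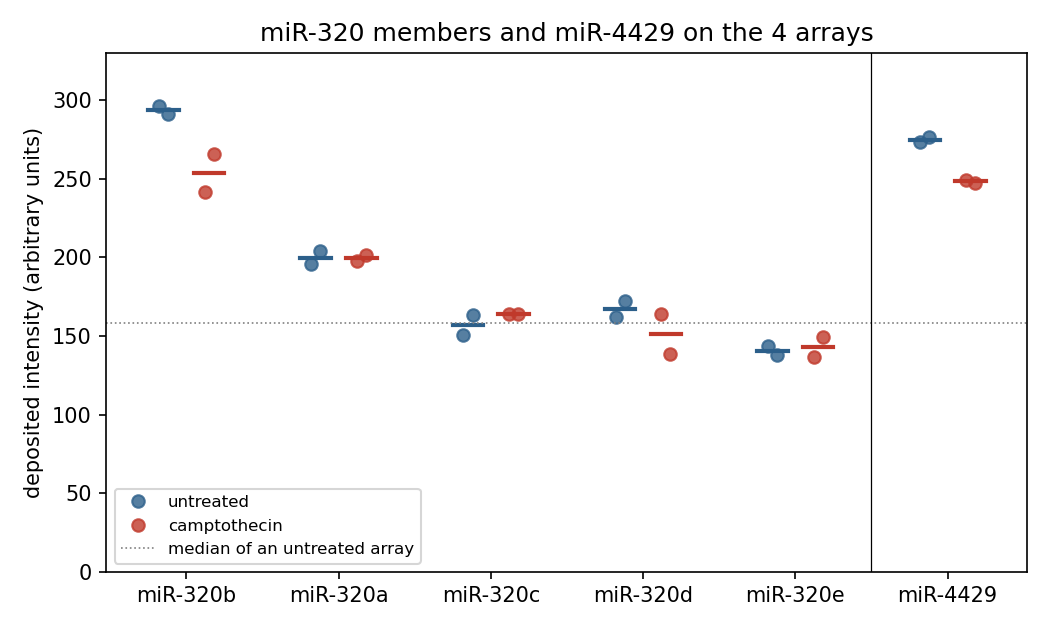
Deposited intensity (vertical axis, arbitrary units, from 0) of the 5 miR-320 members and of miR-4429, right of the line, on the 2 untreated (blue) and 2 camptothecin (red) arrays. Points are arrays, bars are group means and the dotted line is the median of an untreated array, 158.29. The groups are clearly apart for miR-320b and miR-4429, by 0.2 units for miR-320c, and they overlap for the rest.

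miR-320a, the member best known for escaping Drosha, did not pass the test. It read 197.8 and 201.3 on the treated arrays against 196.1 and 203.8 on the untreated arrays, so the treated values lay inside the untreated range. Its log2 fold change was -0.0028 ± 0.045 SE, with a 95% interval from -0.11 to 0.11 (limma adjusted p = 0.963). The probe lay between the 62.3 and 66.3 percentile of brightness on every array, and its replicates differed by 0.025 and 0.055 on the log2 scale, treated first.

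miR-320c read 163.8 on both treated arrays, and 150.4 and 163.6 on the untreated arrays. Both treated values were above both untreated ones, but above the higher of these by only 0.2 units. The log2 fold change was 0.063 ± 0.053 SE, with a 95% interval from -0.070 to 0.20 (limma adjusted p = 0.359). The equal treated values carry no spread of their own, and 38 of the 1308 entries had equal values on both treated arrays.

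Between the treated arrays, though not between the untreated ones, miR-320d was the least reproducible member. It read 163.8 and 138.7 on the treated arrays and 162.4 and 172.2 on the untreated arrays. The first treated value lay within the untreated range and the second below it, so the groups overlapped. Only 44 entries, or 3.36% of all, differed more between the treated arrays. It stood at the 45.7 percentile of brightness on one treated array and at the 15.1 percentile on the other, while both untreated arrays placed it above the middle, at the 52.1 and 56.0 percentile. The log2 fold change was -0.15 ± 0.086 SE, with the widest 95% interval of the family, from -0.36 to 0.064 (limma adjusted p = 0.190). Without camptothecin replicate 1 it was -0.27 and without camptothecin replicate 2 it was -0.029.

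miR-320e, whose seed is shifted, was the dimmest member. It read 136.9 and 149.2 on the treated arrays, on either side of the untreated values of 143.6 and 138.0. The log2 fold change was 0.022 ± 0.058 SE, with a 95% interval from -0.12 to 0.17 (limma adjusted p = 0.762). Its place among all probes ranged from the 12.8 percentile on one treated array to the 39.4 percentile on one untreated array.

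By mean level the probes were ordered miR-320b, miR-320a, miR-320d, miR-320c and miR-320e on the untreated arrays. On the log2 scale these levels were 8.20 ± 0.019, 7.64 ± 0.039, 7.39 ± 0.060, 7.29 ± 0.086 and 7.14 ± 0.040 (SD, n = 2). The ranges of miR-320d and miR-320c overlapped there. After treatment miR-320c (7.36, equal values) stood above miR-320d (7.24 ± 0.17), and the ranges of miR-320d and miR-320e overlapped. A probe has its own brightness per molecule, so this is an order of probes and not of amounts of RNA. miR-320a and miR-320b were above the median level of all entries and the other 3 members below it. The 95% intervals of the 5 fold changes overlapped one another, and differences between members were not tested.

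miR-4429, which has the seed of miR-320b but is not a member by name, read 249.3 and 247.5 on the treated arrays against 273.4 and 276.4 on the untreated arrays. Both treated values lay below both untreated ones, and the replicates were closer together than those of miR-320b. It fell by 0.15 on the log2 scale (-0.15 ± 0.045 SE, 95% interval from -0.26 to -0.035; limma adjusted p = 0.0424). Like that of miR-320b, this call was lost with each array left out, with a log2 fold change from -0.154 to -0.139. It was also lost with all 4 arrays quantile normalized together (limma adjusted p = 0.0904). With the 75th percentile taken over brighter entries the log2 fold change of miR-4429 was -0.021 (limma adjusted p = 0.680). miR-320b and miR-4429 are bright enough to lie among the brightest 327 entries, of which 129 were called lower and 61 higher.

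The changes of all entries depended on brightness, so each member was set beside the 50 entries just below it and the 50 just above it in mean log2 level. This is a description of the same 4 arrays, and entries are not replicates. All 5 members had a lower log2 fold change than the median of their 100 neighbours, and 3 of them, miR-320b, miR-320d and miR-320e, lay below the neighbours' 10th percentile. As the members may share target RNA, these are not 5 independent readings.

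For miR-320b the neighbours, between levels of 246.5 and 320.2, had a median log2 fold change of -0.013, with 15 called higher and 17 lower, and only 6 of the 100 had a lower value than miR-320b. For miR-320d they had a median of 0.096 and a 10th percentile of -0.0032, and 0 of the 100 had a lower value than its -0.15. No neighbour of miR-320d was called lower and 29 were called higher. The neighbours of miR-320e had a median of 0.15, 50 of them were called higher, and 7 had a lower value than the member. Leaving out camptothecin replicate 1 or 2 gave a log2 fold change of -0.27 or -0.029 for miR-320d and 0.084 or -0.040 for miR-320e. Both values thus depended on which treated array was kept. miR-320a (-0.0028 against a median of 0.053) and miR-320c (0.063 against 0.10) stood well within their neighbours' ranges, above 35 and 33 of the 100. miR-4429 was lower than its neighbours' median of -0.0093 by 0.14, with 16 of the 100 lower still. With 50 or with 200 neighbours in place of 100, all 5 members again lay below the median, and 3 below the 10th percentile.

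**Figure D2:**
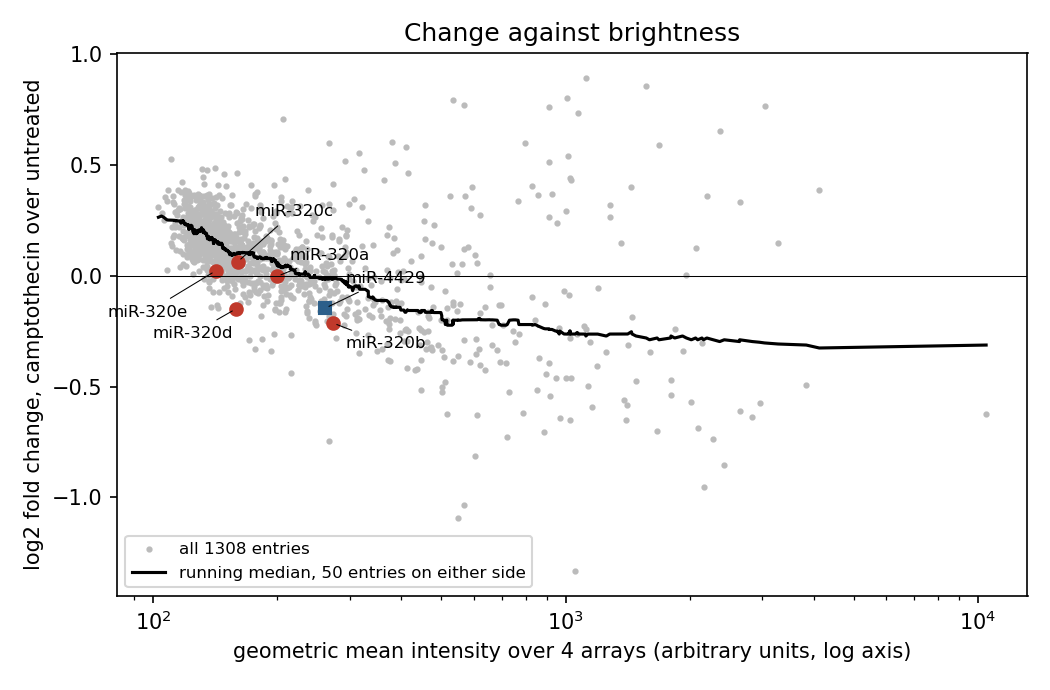
Log2 fold change, camptothecin over untreated (vertical axis), against geometric mean intensity over 4 arrays (horizontal log axis, arbitrary units) for all 1308 entries (grey), the 5 miR-320 members (red) and miR-4429 (blue square). The line is a running median with 50 entries on either side, which falls from above 0 for dim entries to below 0 for bright ones, and the 5 members and miR-4429 lie under it.

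**Figure D3:**
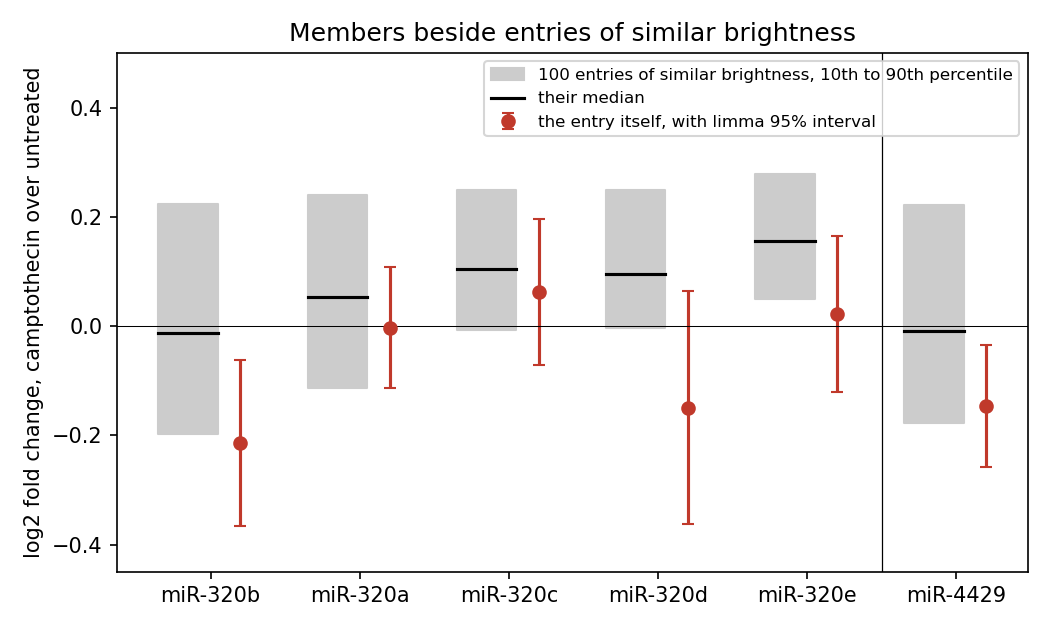
Log2 fold change, camptothecin over untreated (vertical axis), of each member and of miR-4429 (red points, bars are limma's 95% intervals) beside the 10th to 90th percentile (grey) and the median (black line) of 100 entries of similar brightness. miR-320b, miR-320d and miR-320e lie below the grey range, miR-320a and miR-320c within it.

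The sign of a small change depended on how the arrays were scaled against each other. As deposited, 3 of the 5 members had a negative log2 fold change. With all 4 arrays quantile normalized together all 5 were negative, from -0.28 (miR-320d) to -0.044 (miR-320c), and the median over all entries was -0.0093. Cyclic loess, which evens out differences that depend on brightness, likewise gave 5 negative values, from -0.26 (miR-320d) to -0.046 (miR-320c), with a median of 0.0003 over all entries. Under these scalings 0 members were called (limma adjusted p under 0.05), while 12.9% and 15.1% of all entries were, of which 46.7% and 36.0% were lower against 24.3% as deposited. An unadjusted p under 0.05 was reached by 2 members after quantile normalization, miR-320b and miR-320d, by these and miR-320e (3 members) after cyclic loess, and by miR-320b alone as deposited. With the 75th percentile taken over entries at or above the median level, 3 members were positive and 2, miR-320a and miR-320c, were called higher (log2 fold change 0.12 and 0.19; limma adjusted p = 0.0492 and 0.0215), as were 68.2% of all entries. In each of these scalings all 5 members lay below the median of all entries. The 75th percentile scaling moves every log2 fold change by the same amount, so there this was fixed by the values as deposited. Without untreated replicate 2, 4 of 5 members lay below the median, with miR-320c at 0.12 against 0.11.

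**Figure D4:**
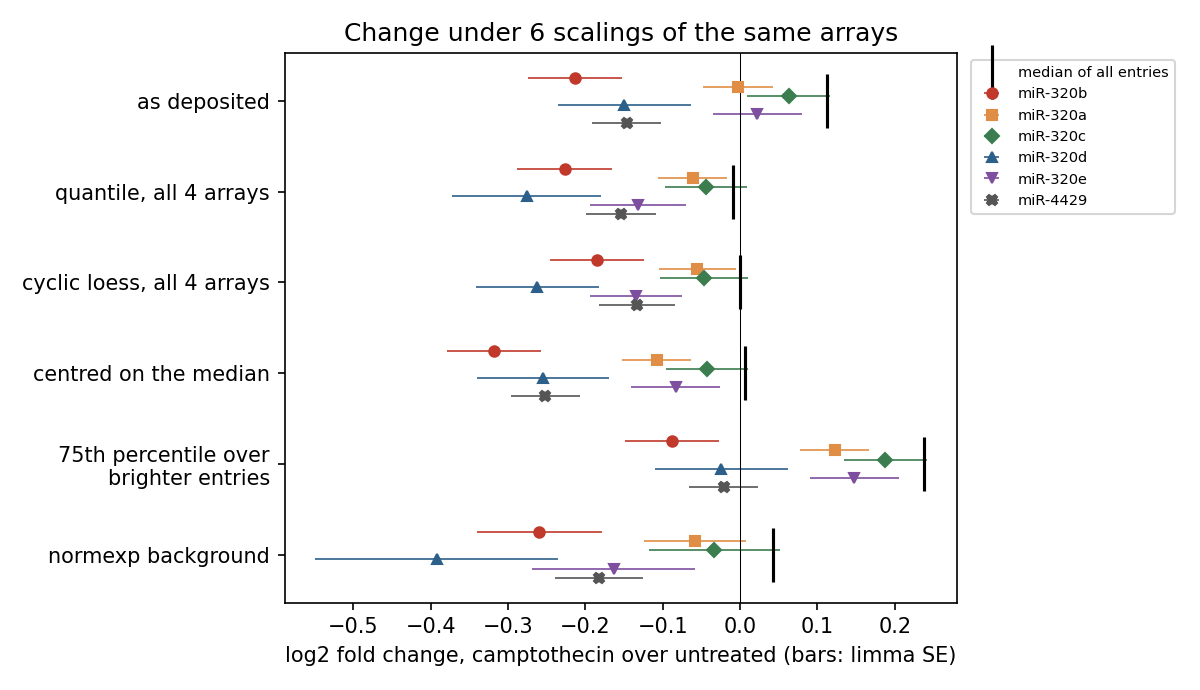
Log2 fold change, camptothecin over untreated (horizontal axis, bars are limma's SE), of the 5 members and of miR-4429 under 6 scalings of the same arrays, with the median of all entries as a black tick. How far a point moves with the scaling differs between members, and in these 6 scalings all 5 members lie on the lower side of the tick. Centring each array on its median, or scaling by a percentile over brighter entries, moves all log2 fold changes and the tick equally. There the side of the tick was fixed by the values as deposited, so these scalings add no separate reading of it.

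The entries nearest to miR-320b over the 4 arrays, by Euclidean distance of log2 values, were miR-3691-3p (distance 0.092), miR-4685-5p (0.098) and miR-4721 (0.10). Their log2 fold changes were -0.12, -0.28 and -0.17. They were chosen on the same values that give the fold change, so similar changes were set by the choice and are only a description. Nearest to miR-320e were miR-4280 (distance 0.040), miR-1471 (0.056) and miR-657 (0.058), with log2 fold changes from 0.031 to 0.060.

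Other miRNAs listed as needing no Drosha did not move in 1 direction. The list held miR-484, which like miR-320 is made from a capped short hairpin, and miRNAs taken as mirtrons, a class whose hairpins are spliced introns. Whether each of them is made by splicing and without Drosha was not tested. Of the list's 24 entries 9 rose and 5 fell as deposited, where 35.1% of all entries were called higher and 11.2% lower. These calls split by arm: all 9 that rose were 3p arms and all 5 that fell were 5p arms. The cause of the split was not tested. With cyclic loess 11 of the 24 rose and 3 fell, and with all 4 arrays quantile normalized together 7 rose and 4 fell. Of all 1308 entries cyclic loess called only 197, 71 of them lower, and the joint quantile scaling 169, 90 of them higher. Under both scalings the list was thus called more often than all entries, in both directions, and the reason was not tested. As deposited the median log2 fold change of 0.11 was close to that of all entries, but the list was brighter, with a median level of 469. Among the brightest 327 entries the median log2 fold change was -0.12, with 61 called higher and 129 lower, so the list stood above entries of that brightness. miR-484 read 188 against 175 on average, with a log2 fold change of 0.11 ± 0.053 SE, and did not pass (limma adjusted p = 0.149). The 4 entries of lowest adjusted p were the mirtron miR-877-3p (0.80), which rose, and miR-1237-5p (-0.70), miR-1234-5p (-0.69) and miR-1227-5p (-0.46), which fell. All but 1 of the 24 entries were at or above the median level. Of 8 entries of miRNAs cut from small nucleolar RNAs, 4 were called higher and 0 lower, miR-664a-5p (0.37), miR-3653 (0.36), miR-3651 (0.28) and miR-664a-3p (0.25). With cyclic loess this became 1 higher, and 3 of these 4 were below the median level, where 0 entries were called lower.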

How the data were processed

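Small RNA of Hep3B exosomes was measured on 4 arrays, grouped by the treatment in the labels. Per the labels, the RNA was amplified and coupled to Cy5. Which scanner, background correction and normalization the authors used is not given in the sources used here. The deposited values are intensities on a linear scale, 1 per entry. Entries were named from the authors' second table, whose log2 ratios, per the file headers treated over comparator, equal the log2 differences of the deposited intensities within 5e-10. Another 4 columns of per-sample values there were not used.

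Log2 intensities of all 1308 entries were compared, treated over untreated, with limma 3.58.1 in R 4.3.3 (lmFit, eBayes with trend, two-sided, no pseudocount, Benjamini-Hochberg over all entries, threshold 0.05). The number of arrays limits the precision, and the smallest p of an exact permutation test of 2 against 2 is 0.333. The code was tested on simulated data. Alternatives were other scalings, normexp background, pseudocounts, a filter on dim entries, variance models, a 2-fold threshold, a replicate block and leaving out each array. Same-numbered arrays did not deviate together (r = -0.072 over entries), so the numbers were not taken as pairs.

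Members, lists and tests were chosen with earlier results of these data known. Named are the members, entries with their seed, the 3 entries nearest to the brightest and to the dimmest member, and up to 4 called entries of each list. Which 4 of the Drosha-independent list, those of lowest adjusted p, was settled after values were seen, and miR-484 was named then too. Sequences are RefSeq's (GRCh38.p14). No member was filtered out.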

Additional observations from a re-analysis of the deposited data

How the results depend on the processing

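The call of miR-320b held with each array centred on its median, with either pseudocount, with dim entries left out, and with both other variance models. It kept its sign under all alternatives. The number of members called fell from 1 to 0 with all 4 arrays quantile normalized together, with cyclic loess, after normexp correction, with a 2-fold threshold, with the replicate block (miR-320b limma adjusted p = 0.0548, miR-4429 0.0892) and without each array (0 to 0), and rose to 2, miR-320a and miR-320c, with the 75th percentile over brighter entries, where miR-320b (-0.088) and miR-4429 (-0.021) lost their calls. The 606 entries called (459 higher) became 169 (90 higher; quantile), 197 (71 of them lower; loess), 330 (118; centring), 975 (892; 75th percentile over brighter entries), 191 (106; normexp), 267 (125) of the brighter 654 entries alone, 3 with a 2-fold threshold, 550 with the replicate block, and 1 to 71 without 1 array. The median log2 fold change of the members, -0.0028, became -0.132, -0.134, -0.108, 0.122 and -0.164 under the first 5 of these, -0.108 over the 2 members among these 654, and ranged from -0.031 to 0.0099 without 1 array. miR-320c turned sign to -0.044 (quantile), -0.046 (loess), -0.043 (centring) and -0.033 (normexp). miR-320e turned to -0.132, -0.134, -0.083 and -0.164 in the same order, to -0.040 without camptothecin replicate 2 and to -0.0062 without untreated replicate 2. miR-320a turned to 0.122 with the 75th percentile over brighter entries, to 0.0099 without camptothecin replicate 1 and to 0.025 without untreated replicate 2. Without 1 array miR-320b ranged from -0.281 to -0.145, miR-320c from 0.0018 to 0.124, miR-320d from -0.27 to -0.029, miR-320e from -0.040 to 0.084, miR-320a from -0.031 to 0.025 and miR-4429 from -0.154 to -0.139. The cause was not tested, beyond fewer entries or arrays where these were left out. With an array left out, the lone array of its group is assumed to vary like the other group. Signal over background is not known, which limits what the dim members can show.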
